A study of Mus musculus with 3 samples.

Results

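The 10 genes described here are 5 regulators or markers of tendon cells (Scx, Mkx, Egr1, Egr2 and Tnmd) and 5 genes of the non-collagen extracellular matrix (Tnc, Fbn1, Fbn2, Postn and Thbs4). They were chosen by name from 21779 protein-coding genes, with earlier results of these data known. For each, all listed LMX1B intervals (peaks) were collected whose midpoint lay in its domain, that is the RefSeq gene body and the flanks on either side as far as the neighbouring protein-coding gene, by at most 1 Mb. LMX1B had been precipitated from C57BL/6 limb buds at embryonic day 12.5, fore- and hindlimbs pooled in 2 runs of 48 limb buds, with the polyclonal antibody BMO8. There were 2 ChIP-seq samples, called here the first ChIP (wild type by its track name) and the validation ChIP (no genotype in its track name, though the series title names wild-type limb buds), each a single sample with 1 interval list. A list gives no read counts and no expression, so depth is unknown, the tissue could not be checked against markers, and without replicates no comparison below carries a test.

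LMX1B is a LIM homeodomain transcription factor of the dorsal limb mesenchyme. It gives the limb its dorsal pattern, which includes the arrangement of tendons and ligaments, and loss of one copy in humans causes nail-patella syndrome. Tendon progenitors are marked by scleraxis and later deposit a collagen matrix in which glycoproteins such as tenascin-C, fibrillins, periostin and thrombospondins take part. The question was whether LMX1B intervals were listed near these genes, and which of them had none.

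Of the 10 domains, 1 held a first-ChIP interval, that of Fbn2, and 4 held validation intervals, those of Mkx, Egr2, Fbn2 and Postn. Among all protein-coding genes, 6.04% had a first-ChIP interval in the domain and 15.1% a validation interval. The Fbn2 interval of the first ChIP was also the only shared one, meaning that it overlapped a validation interval by at least 1 bp. A shared interval lay in the domain of 3.41% of all protein-coding genes. Over the whole lists, 54.9% of first-ChIP and 15.6% of validation intervals were shared, so that most validation intervals (84.4%) had no first-ChIP interval over them. No interval of either list was found in the domains of 6 genes, Scx, Egr1, Tnmd, Tnc, Fbn1 and Thbs4. Thus 4 of the 10 domains held an interval of either list, against 16.7% of all protein-coding genes.

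In all, the 10 domains held 1 of 1287 first-ChIP intervals and 8 of 4501 validation intervals. Together the domains covered 3.41 Mb, which gave 0.293 first-ChIP and 2.35 validation intervals per Mb, against 0.485 and 1.70 per Mb over the domains of all protein-coding genes. The validation figure rested on Fbn2, which held 5 of the 8. Without it, 3 validation intervals in 2.80 Mb gave 1.07 per Mb, and 3 of 9 domains were occupied. Fbn2, Mkx and Egr1 lie on chromosome 18, where validation intervals were listed at 2.65 per Mb. The figures for all protein-coding genes include the sparse sex chromosomes. X held 0.0119 first-ChIP and 0.185 validation intervals per Mb, and Y held 1 validation interval.

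**Figure D1:**
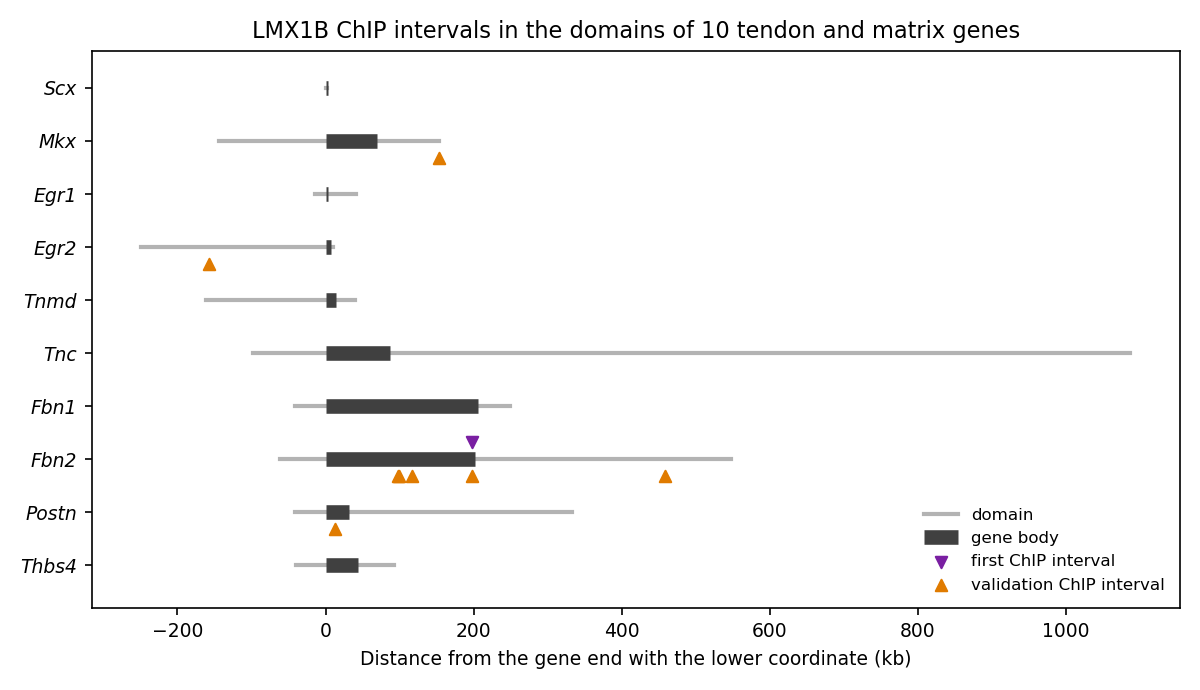
Domains (grey lines) and bodies (dark bars) of the 10 genes, drawn in kb from the gene end with the lower coordinate, with midpoints of first-ChIP (down triangles) and validation (up triangles) intervals. Fbn2 alone has a first-ChIP interval, and 6 rows have no triangle.

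The domains were long, with a median of 275 kb for the 10 genes against 67.3 kb for all protein-coding genes, and longer domains more often held an interval. Of the 2 domains under 100 kb, Scx and Egr1, none held an interval of either list, and among all genes of that class 2.76% held a first-ChIP and 6.35% a validation interval. Of the 6 domains of 100 to 500 kb, 0 held a first-ChIP and 3 a validation interval (Mkx, Egr2 and Postn), where 6.91% and 21.8% of all such genes did. Of the 2 domains of 500 kb or more, Fbn2 held both kinds and Tnc neither, where 25.6% of all such genes held a first-ChIP and 53.5% a validation interval. With 2 or 6 genes in a class, 1 gene moves each share by a large step, and the counts are given as a description only.

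**Figure D2:**
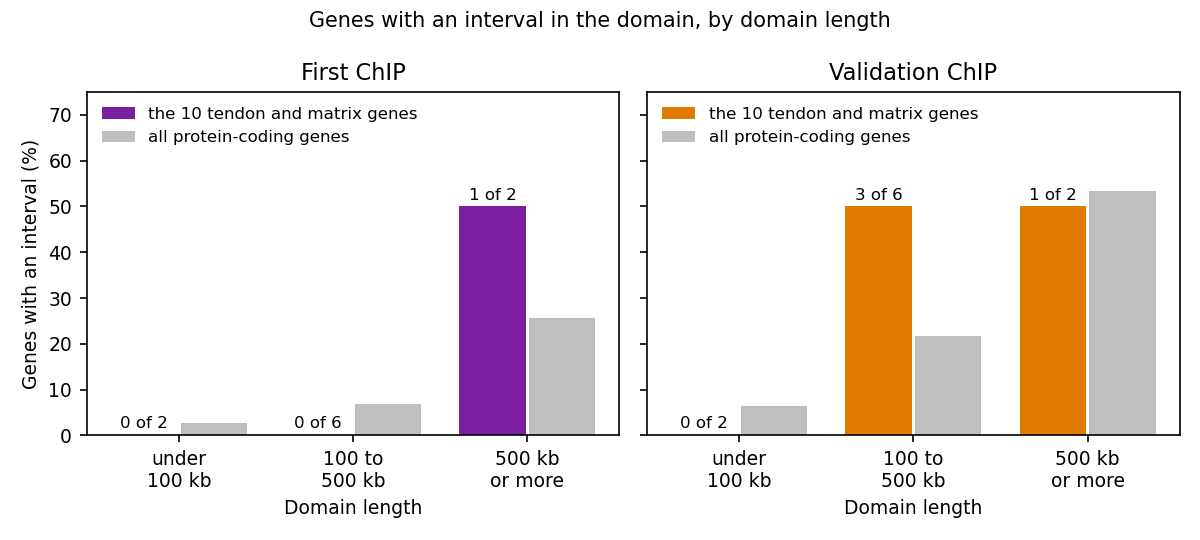
Percentage of genes with a first-ChIP (left panel) or validation (right panel) interval in the domain, for the 10 genes (coloured, with counts) and for all protein-coding genes (grey), by domain length. Grey bars grow with domain length, and the coloured bars rest on 2, 6 and 2 genes.

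Among the regulators, Scx encodes scleraxis, the basic helix-loop-helix factor of tendon progenitors. It lies on chromosome 15 at 76457411 to 76459468, inside the body of Bop1, so its domain was its own 2.06 kb. No interval of either list lay within 200 kb of it. The nearest were an overlapping pair in Rpl8, a ribosomal protein gene, 445 kb away, with scores of 50 in the first ChIP and 11 in the validation ChIP. The score is the whole number the authors gave each summit. It has no stated unit and is compared here only within a list.

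Mkx encodes Mohawk, a homeodomain factor that promotes the tendon matrix programme, and lies on chromosome 18 at 6934966 to 7004779 in a domain of 297 kb. Its single interval, in the validation list only as 84.4% of that list were, lay at 7087728 to 7088068 with a score of 11, the median of that list. It was 83.1 kb from Mkx but 335 bp from the body of Armc4, just inside the border of the domain. The next validation interval, at 7094356 to 7095376 with a score of 14, lay just outside it, within Armc4. The nearest first-ChIP interval was 1.12 Mb from Mkx.

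Egr1 and Egr2 encode zinc finger factors that induce collagen genes in tendon cells, and Egr2 also acts in hindbrain patterning and in Schwann cells. Egr1 (chromosome 18, 34861207 to 34864956) had an empty domain of 55.3 kb. Outside it, a first-ChIP interval in Fam53c (score 23) lay 102 kb away and a validation interval beside Cdc25c (score 8) lay 110 kb away, and these did not overlap each other. Egr2 (chromosome 10, 67534469 to 67542188) had 1 validation interval in 259 kb, at 67376860 to 67377535 with a score of 10. That interval lay 157 kb from Egr2 and 91.9 kb from Nrbf2, inside the long non-coding RNA gene Gm46230, and counted for the domains of both coding genes. The nearest first-ChIP interval to Egr2 lay 530 kb away, near Reep3. Neither Egr gene had an interval in its body.

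Tnmd encodes tenomodulin, a membrane protein of differentiated tendon cells. It lies on the X chromosome at 133851008 to 133865577, and its domain of 202 kb was empty in both lists. The nearest intervals on the chromosome were 32.2 Mb (first ChIP) and 18.5 Mb (validation ChIP) away. Of all protein-coding genes with an interval on their chromosome, 97.3% had a nearer first-ChIP and 98.8% a nearer validation interval. The whole X chromosome held 2 first-ChIP and 31 validation intervals, or 0.0119 and 0.185 per Mb. The part of this in the empty domain of Tnmd was not tested.

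The 250 bases before the annotated start of Tnmd are shown because they hold the homeodomain palindrome TAATTA, the only such match in the promoter windows of these genes, while no LMX1B interval was listed within megabases. The sequence is from RefSeq, build GRCm38.p6, plus strand, chrX:133850758-133851007, with every ATTA or TAAT, the homeodomain core on either strand, in capitals.
Tnmd: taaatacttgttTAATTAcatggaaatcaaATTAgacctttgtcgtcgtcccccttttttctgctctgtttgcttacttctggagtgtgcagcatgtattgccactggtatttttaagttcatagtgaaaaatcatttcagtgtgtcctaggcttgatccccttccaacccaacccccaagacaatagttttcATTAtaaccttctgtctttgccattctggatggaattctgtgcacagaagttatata

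**Figure D3:**
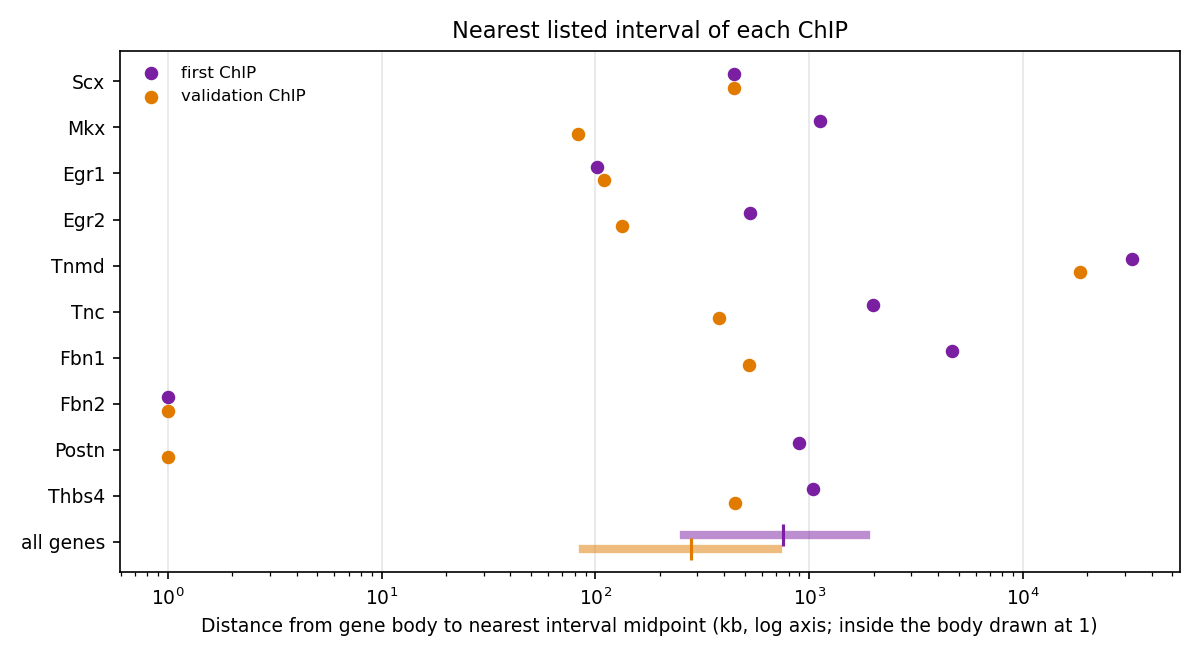
Distance in kb (log axis) from each gene body to the nearest interval midpoint of the first and validation ChIP, with intervals inside the body drawn at 1. The lowest row gives all protein-coding genes (tick, median; bar, 25th to 75th percentile), and Tnmd lies farthest of the 10 from both lists.

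Among the matrix genes, Fbn2 held most of the signal. It encodes fibrillin-2, a building block of extracellular microfibrils that is abundant in embryonic tissue, and mutations in it cause contractures of the digits in humans. The gene lies on chromosome 18 at 58008623 to 58210572 in a domain of 609 kb. Its first-ChIP interval, at 58206738 to 58207042, had a score of 22, above 62.5% of that list. The validation interval over it, at 58206755 to 58207300, had a score of 13, above 65.7% of its own list. Both lay inside the gene, 3.68 and 3.55 kb from its higher-coordinate end.

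The pair in Fbn2 overlapped by 288 bp, which was 94.4% of the first-ChIP and 52.7% of the validation interval. Both summits stood at the same position, 58206912 as deposited. Summits in these lists mostly fall on a 16 bp grid (96.3% of the first-ChIP and 94.4% of the validation summits), and 66 of 709 overlapping pairs (9.31%) had the same summit. Across all protein-coding genes, 2.42% had a first-ChIP interval and 1.04% a shared interval in the gene body.

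Fbn2 held 4 further validation intervals that, like 84.4% of their list, no first-ChIP interval overlapped. Those at 58106288 to 58106862 (score 11) and 58107156 to 58107845 (score 18) lay 293 bp apart near the middle of the gene, about as far from one end of the gene as from the other (98.9 and 103 kb for the second). The score of 18 was the highest of the 8 validation intervals of these genes and stood above 89.0% of its list. Of all validation intervals, 6.82% had another within 1000 bp. Another lay in the body at 58125876 to 58126246 (score 10). The last, at 58466440 to 58466914 (score 11), was 256 kb outside the body and nearer to Slc27a6, at 89.6 kb.

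Few genes held as many validation intervals as Fbn2, with 5 in the domain and 4 in the body. At least 5 in the domain were found for 258 protein-coding genes (1.18%), and for 217 of the 1986 with domains of 500 kb or more (10.9%). At least 4 in the body were found for 86 genes (0.395%). That share takes no account of body length, and the Fbn2 body spans 202 kb. The pair near the middle of the gene, only 293 bp apart, counts as 2 of the 4. These shares place Fbn2 in the upper range of its list but are descriptive, since the gene was named with earlier results known.

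**Figure D4:**
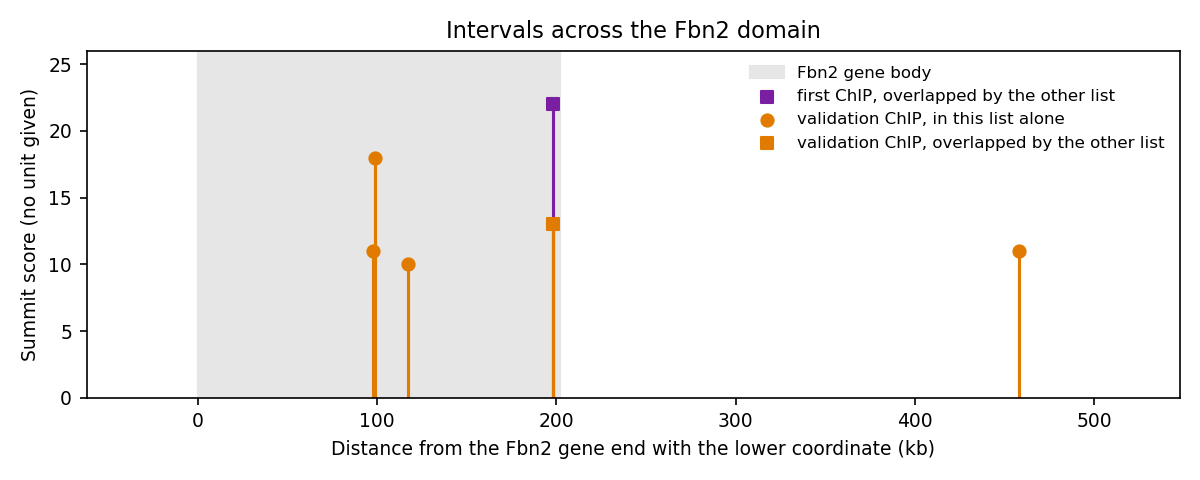
Intervals across the Fbn2 domain, by distance in kb from the gene end with the lower coordinate, with the height giving the summit score in its own list. Squares mark the overlapping pair near the right end of the gene body (scores of 22 and 13), and circles mark the 4 other validation intervals.

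Fbn1 encodes fibrillin-1, the other mouse fibrillin and the gene mutated in human Marfan syndrome. It lies on chromosome 2 at 125300594 to 125506485, and its body of 206 kb is about as long as the 202 kb of Fbn2. Neither list had an interval in its domain of 291 kb. The nearest first-ChIP interval was 4.67 Mb away, in Snrpb, and the nearest validation interval 525 kb away, in Fam227b. Of all protein-coding genes, 90.3% had a nearer first-ChIP interval and 67.2% a nearer validation interval. The domains of the paralogs thus held 1 and 0 first-ChIP and 5 and 0 validation intervals, in the order Fbn2, Fbn1. These domains differ in length (609 and 291 kb). In the gene bodies, which are about equally long, the validation counts were 4 and 0. The difference was not tested.

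Postn encodes periostin, a matrix protein of tendon, periosteum and other fibrous tissue, and lies on chromosome 3 at 54359267 to 54391041. Its single interval, like most of the validation list without a first-ChIP interval over it, lay in the gene body at 54372431 to 54373026 with a score of 10. That score stood above 24.0% of the list and was the score of 829 intervals, so it was among the lower ones. The interval was 13.5 and 11.6 kb downstream of the 2 annotated start sites. Among all protein-coding genes, 5.46% had a validation interval in the body. The nearest first-ChIP interval was 896 kb from Postn.

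The bases before the outer start site of Postn are shown because it was the one gene with both an interval in its body and a start site in the sequence table. They hold a single homeodomain core, in capitals, and no interval was listed there. The sequence is from RefSeq, build GRCm38.p6, plus strand, chr3:54359017-54359266.
Postn: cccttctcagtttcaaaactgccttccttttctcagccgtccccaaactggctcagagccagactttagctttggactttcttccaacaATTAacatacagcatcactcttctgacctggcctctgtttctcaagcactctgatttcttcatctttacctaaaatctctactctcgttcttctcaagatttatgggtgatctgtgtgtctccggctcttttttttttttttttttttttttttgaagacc

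Tnc encodes tenascin-C, a glycoprotein of tendon and of other matrix under load. It lies on chromosome 4 at 63959785 to 64047015, and its domain of 1186 kb, longer than those of 97.7% of protein-coding genes, was empty in both lists. The nearest validation interval was 377 kb away in Tmem268, and the nearest first-ChIP interval 1.98 Mb away in Astn2. Thbs4 encodes thrombospondin-4, which in the mouse organises the matrix of tendons and their junctions with muscle. It lies on chromosome 13 at 92751586 to 92794818, and its domain of 133 kb was empty too. Its nearest validation interval was 448 kb away in Msh3, and its nearest first-ChIP interval 1.04 Mb away in Arsb. For comparison, the median distance over all protein-coding genes was 281 kb to a validation and 755 kb to a first-ChIP interval. Tnc and Thbs4 lay farther away than that in each list, though not at the extremes. Of all genes, 58.2% had a nearer validation and 76.9% a nearer first-ChIP interval than Tnc. For Thbs4 these shares were 63.1% and 59.4%.

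Scores of the intervals in these domains were mostly ordinary for their lists. The 8 validation scores had a lowest value of 10, a median of 11 and a highest value of 18, while the list as a whole ran between 6 and 55 with a median of 11. Of the 8, 5 stood at or above that median and 3 below it. The single first-ChIP score of 22 compares with a median of 20 and a highest value of 86. The interval in Fbn2 ranked 394 of 1287 in the first ChIP, and the highest of the validation intervals, also in Fbn2, ranked 414 of 4501. Both ranks are the best among ties, with 90 first-ChIP intervals at a score of 22 and 84 validation intervals at 18.

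**Figure D5:**
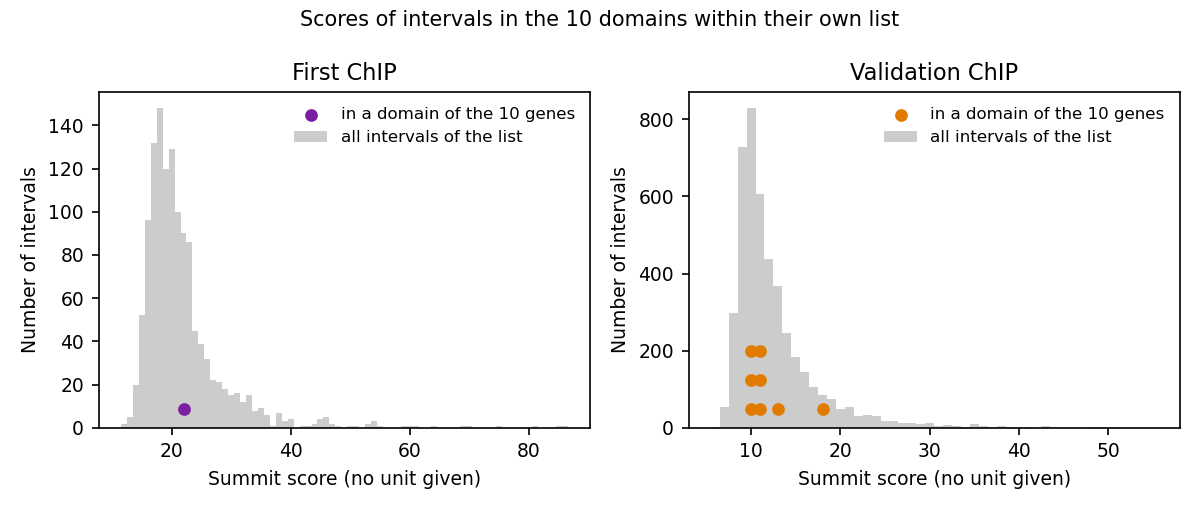
Number of intervals at each summit score in the first-ChIP (left) and validation (right) list, in grey, with the intervals in the 10 domains as points at their score (points are stacked for visibility and their height has no meaning). The validation points sit between 10 and 18, and the single first-ChIP point is at 22.

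Start sites were available for 6 of the genes (Egr2, Tnmd, Tnc, Fbn1, Postn and Thbs4), as 12 windows of 300 bases that overlap in part, and those of Scx, Mkx, Egr1 and Fbn2 were not analysed here. None of the 12 windows overlapped an interval. Of all 32817 promoter windows, 0.811% overlapped a first-ChIP and 1.43% a validation interval. On both strands, TAATTA was found in 1 of the 12 windows (Tnmd), against 5.30% of all windows. Its core ATTA, which TAATTA contains, was found in 8 (Egr2, Tnmd, Tnc and Postn), against 58.0%. The E-box CANNTG, the class of site bound by basic helix-loop-helix factors, was in 8 (Egr2, Tnc, Fbn1 and Thbs4), against 72.3%. The GC box GGGCGG was in 6 windows of the same 4 genes, against 35.6%, and the Egr site GCGTGGGCG in 0, against 0.612%. A match is a description of the letters and not a bound site.

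A wider set of 65 genes of tendon signalling and matrix gave 11 domains with a first-ChIP interval (16.9%), 21 with a validation interval (32.3%) and 7 with a shared interval (10.8%). The shares for all protein-coding genes are the 6.04%, 15.1% and 3.41% above. The median domain of the 65 genes was 134 kb, longer than that of all genes (67.3 kb), and 6 of the 7 genes with a shared interval had domains of 500 kb or more. Of the 13 genes of the set with such domains 6 had a shared interval, against 19.6% of all protein-coding genes in that class. The first-ChIP and validation shares of the set were not split by domain length. The set was chosen with earlier results of these data known, so its shares, also those by group below, are a description and not evidence of enrichment.

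By group, TGF-beta and FGF signalling had shared intervals in 3 of 21 domains (14.3%), against 3.41% of all protein-coding genes. All 3 were among its 5 domains of 500 kb or more, a class in which 19.6% of all genes had one. Dusp6, which encodes a phosphatase that restrains ERK signalling, had 3 in its domain. The nearest of them lay in the gene body (chromosome 10, 99263016 to 99263447, scores of 20 in the first and 16 in the validation ChIP). Smad2, a transducer of TGF-beta signals, had 1 at 24.9 kb (scores of 24 and 43), and Spry2, an FGF antagonist, had 1 at 320 kb (scores of 25 and 16). Of 11 other regulators and paralogs of the 10 genes, 1 had a shared interval in its domain (9.09%). This was Foxp1, a forkhead factor, with the interval in its body (chromosome 6, 99484937 to 99485216, scores of 17 and 15). Its domain was 1 of 3 in that group of 500 kb or more.

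Among matrix relatives, thrombospondins, tenascins and periostin relatives had a shared interval in 1 of 12 domains (8.33%), that of Thbs1, at 388 kb (scores of 20 and 10). That domain was 1 of 3 in the group of 500 kb or more. For all protein-coding genes the share was 3.41%, and 19.6% for domains of 500 kb or more. Partners of the fibrillins in microfibrils and elastic fibres had one in 2 of 21 domains (9.52%). These were Lox, the crosslinking lysyl oxidase, at 83.2 kb (chromosome 18, 52612903 to 52613322, scores of 25 and 19), and Ltbp1, a latent TGF-beta binding protein, at 116 kb (scores of 32 and 23). The domain of Lox spans only 124 kb, so its interval lay nearer to the neighbouring coding gene than to Lox. For the other genes of the wider lists with a shared interval outside the body, the nearest coding gene was not looked up.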

How the data were processed

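Chromatin was fixed with 1% formaldehyde for 15 min and sheared to 300 to 500 bp, and 30 µg were precipitated with 20 µl of antibody, per the labels' protocols. BWA and build mm10 are named in the submitters' processing notes. No peak caller, calling threshold or depth was given in the sources used here. The authors deposited intervals and, for each, a summit with a whole-number score without stated unit. Tracks were tied to samples by their names. The first-ChIP list occurs in 2 copies with 1287 identical intervals and scores, and 1 summit differs by 16 bp. The input had no interval list and was not used.

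Gene positions, from RefSeq GRCm38.p6 (the coordinates of mm10), were used on autosomes, X and Y, on autosomes and X from 3 Mb. A gene nested in another got no extension. Gene and interval coordinates count from 1, while summit positions are given as deposited, without that shift. Distances run from interval midpoints to gene bodies. Counts were set beside the same counts over all protein-coding genes, with no test, since each group has 1 sample. The genes named were the 10, the neighbours of their domains and intervals, and all genes of the wider lists with a shared interval. The 10 genes and the wider lists were chosen with earlier results of these data known. Functions were tested on simulated intervals (Python 3.11.15, figures with matplotlib 3.10.9). Alternatives were other gene windows, scores and overlap rules. Interval sequences were not read, as no genome was used.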

Additional observations from a re-analysis of the deposited data

How the results depend on the processing

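Across 9 alternative settings, 1 of them (overlapping genes passed over as domain borders) chosen after seeing the data, Fbn2 kept its first-ChIP and its shared interval and was the only one of the 10 genes with either. Of 53 recomputed counts, 44 stayed within 1.5-fold and 9 moved, all 9 for validation intervals or for intervals of either list. With gene bodies extended by 50 kb, with each interval given to the nearest protein-coding gene only, and with scores at or above the list median, occupied genes numbered 2 and validation intervals 5 each time. The genes were Fbn2 and Postn in the first 2 of these settings and Mkx and Fbn2 in the third. Mkx and Egr2 were lost where the window was shorter than their distance or another gene was nearer, and Egr2 and Postn because their scores of 10 are below the median of 11. Without Fbn2, 0 of 9 genes had a first-ChIP interval. No paired analysis was possible because each group is 1 sample and no result comes from a test. Depth is unknown, so an empty domain means that no interval passed the authors' threshold there, not that LMX1B was absent. The domain of Scx is its gene body alone and can hardly hold an interval.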

Other observations

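The deposited files also contain 735 regions under the name Active Regions. Each was identical to a first-ChIP interval (57.1% of the first-ChIP list) and 0 to a validation interval. The single first-ChIP interval in the 10 domains, that in Fbn2, was one of them.

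Within 200 kb of the gene bodies, 5 intervals lay outside the domains, 1 near Mkx, 3 near Egr1 and 1 near Egr2. The farthest of those near Egr1 was a validation interval at 195 kb with a score of 15, and that near Egr2 lay 133 kb away beyond Ado with a score of 9. None of the 5 was shared. Over the whole lists 45.1% of first-ChIP and 84.4% of validation intervals were not shared. For 5 of the 10 genes (Scx, Tnmd, Tnc, Fbn1 and Thbs4) no interval of either list lay within 200 kb, as for 53.2% of all protein-coding genes.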
